A study of Homo sapiens with 15 samples.

Results

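The miR-17-92 cluster comprises 6 miRNA hairpins that are cut from a single primary transcript, and 10 of its mature strands were examined, of 1707 mature miRNAs counted in the files. The members were chosen by name, with earlier results of these data known, and are hsa-miR-17-5p, hsa-miR-17-3p, hsa-miR-18a-5p, hsa-miR-18a-3p, hsa-miR-19a-3p, hsa-miR-19b-3p, hsa-miR-20a-5p, hsa-miR-20a-3p, hsa-miR-92a-3p and hsa-miR-92a-1-5p. Short RNAs were sequenced from U87-MG, a long-established human line derived from glioblastoma, in 5 groups of 3 libraries. Control cells were kept in 21% O2 (normoxia) or 1% O2 (hypoxia), and cells without HIF1α (HIF1α-KO), without HIF2α (HIF2α-KO) or without both (HIF1α/HIF2α-KO), made with CRISPR/Cas9, were kept in 1% O2, each for 24 h. HIF1α and HIF2α are the oxygen-regulated subunits of the hypoxia-inducible transcription factors. The sgRNAs were delivered by a lentiviral vector, and whether each knockout line was a single clone, what vector the control cells carried and whether the replicates were separate cultures is not given in the sources used here. The p-values therefore measure the spread between these libraries, which may be technical. The assay counts no mRNA, so the knockout of HIF1A and EPAS1, the genes of HIF1α and HIF2α, was not checked in these libraries.

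The cluster is transcribed as the noncoding RNA MIR17HG, a well-known target of MYC and E2F factors, and its miRNAs promote proliferation and survival in many tumours, glioblastoma among them. Each hairpin is cut into a 5p and a 3p strand, of which mainly one is loaded into Argonaute and directs it to mRNAs that pair with the seed, bases 2 to 8. The mature miRNAs fall into 4 seed families. The 17/20a family is known to repress E2F1 and CDKN1A, and the 92a family BCL2L11 and integrin subunits, while 18a is known to act on the TGF-β pathway. Strands cut from one transcript can still differ in level, because processing, loading and decay act on each of them.

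The sequences show which members share a seed and which could be confused in counting. They were taken from RefSeq (GRCh38.p14), where 10 of 10 members had an entry, and are written 5′ to 3′ with the seed in capitals. The strands that define the families, with the paralog miR-18b-5p, were:
miR-17-5p: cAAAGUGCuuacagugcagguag
miR-20a-5p: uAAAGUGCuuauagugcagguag
miR-18a-5p: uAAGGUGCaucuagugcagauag
miR-18b-5p: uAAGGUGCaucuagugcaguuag
miR-19a-3p: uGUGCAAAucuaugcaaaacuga
miR-19b-3p: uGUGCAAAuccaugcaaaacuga
miR-92a-3p: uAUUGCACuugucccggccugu

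Counting positions from 1 at the 5′ end, miR-17-5p and miR-20a-5p differed by C1U and C12U, neither in the seed. The miR-19 strands differed by U11C alone. The seed of miR-18a-5p differed from that of miR-17-5p by A4G, and the whole strands by 6 bases. Among the miRNAs of the files with a RefSeq entry, the seed AAAGUGC was found in 8, AAGGUGC in 2, GUGCAAA in 2 and AUUGCAC in 5. The opposite strands of the hairpins, shown because the arms are compared below, each had a seed that no other miRNA of the files with an entry shared:
miR-17-3p: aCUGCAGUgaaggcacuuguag
miR-18a-3p: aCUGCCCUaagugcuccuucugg
miR-20a-3p: aCUGCAUUaugagcacuuaaag
miR-92a-1-5p: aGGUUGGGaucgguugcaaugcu

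The 6 hairpins lie on the plus strand of chromosome 13 within 787 bases, chr13:91350605-91351391 (GRCh38). In GENCODE 29 the host gene MIR17HG spans chr13:91347820-91354579 and has 3 transcripts. The hairpins are in the intron between exons 3 and 4 of ENST00000400282.6, in exon 3 of ENST00000581816.1 and in exon 2 of ENST00000582141.5. MIR17 lies at chr13:91350605-91350688, and MIR18A follows at chr13:91350751-91350821. The hairpin sequences of these members, with both arms in capitals, show where the strands are cut:
MIR17: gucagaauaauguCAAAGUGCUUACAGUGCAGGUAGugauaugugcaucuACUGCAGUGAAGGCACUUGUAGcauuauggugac
MIR18A: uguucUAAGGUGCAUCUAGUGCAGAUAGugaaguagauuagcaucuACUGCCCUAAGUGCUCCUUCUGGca

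Mature miR-19b-3p and miR-92a-3p are each made by a second hairpin as well, on chromosome X (MIR19B2, chrX:134169671-134169766, and MIR92A2, chrX:134169538-134169612, both on the minus strand). Their counts therefore cannot be assigned to either locus. The core of the hypoxia response element was searched in both of its forms, ACGTG and GCGTG, on both strands of the RefSeq promoter window of MIR17HG (chr13:91347437-91347736), which held 0 matches to either. ACGTG was present in 21.4% of 35116 promoter windows, GCGTG in 36.5% and at least one of them in 48.4%.

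The libraries held from 10360337 to 22496373 counts (median 12478344), so 3 counts, taken as the floor of detection, equalled 0.133 to 0.290 CPM (counts scaled to one common library total). Intervals and floors cover counting error only. Levels below are CPM after TMM scaling in edgeR. These scaling factors were 0.898 to 0.949 in HIF2α-KO libraries and 0.954 to 1.09 in the others. The libraries fell into a set of 9 with 14.04 to 50.8 CPM and a set of 6 with 4.01 to 6.64 CPM of summed miR-126-3p and miR-126-5p, which mark endothelial cells. Every normoxic library was in the higher set, with hypoxic control replicate 1, HIF1α-KO replicate 3, HIF2α-KO replicates 1 and 3, and HIF1α/HIF2α-KO replicates 1 and 2. The results were also fitted with these sets as a covariate and within each set. The 4 glioma markers fixed for the check summed to 198117 to 301285 CPM, and this sum moved with the groups. In normoxic control cells the sum was 210694 to 251136 CPM, which overlapped every group but HIF2α-KO. It was 198117 to 231017 CPM in hypoxic control, 231776 to 253623 in HIF1α-KO, 255744 to 301285 in HIF2α-KO and 236721 to 278707 CPM in HIF1α/HIF2α-KO cells, so that every knockout library was above every hypoxic control library. The 6 blood markers summed to 4.45 to 22.8 CPM, 5 epithelial markers to 37.5 to 116 CPM and 3 muscle markers to 1.63 to 45.1 CPM, and the neuronal marker had at most 0.539 CPM. The muscle sum was 20.2 to 45.1 CPM in HIF1α/HIF2α-KO cells and 6.73 to 27.9 CPM in hypoxic control cells. The part of the glioma and muscle sums in the results was not tested. In bulk RNA, fewer cells with a miRNA and less of it per cell cannot be told apart.

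The cluster held 0.997% to 1.48% of all counts in a library, and 1 strand made up most of that. miR-92a-3p averaged 10825 CPM over the 15 libraries (9178 to 13118), which was 91.0% to 96.1% of the cluster's counts. The next was miR-20a-5p with 319 CPM (194 to 549), so that miR-92a-3p was 34.0 times as abundant. miR-17-5p had 273 CPM (206 to 486), and it was below miR-20a-5p in 11 of 15 libraries, so the order of this pair was not fixed. miR-19b-3p had 52.7 CPM (28.2 to 131). It was followed by miR-18a-3p with 15.01 CPM (12.1 to 21.1) and miR-19a-3p with 11.2 CPM (5.71 to 17.3), which were in this order in 11 of 15 libraries. The lowest strands were miR-18a-5p with 4.84 CPM (3.08 to 9.38), miR-92a-1-5p with 4.29 CPM (1.33 to 6.59) and miR-17-3p with 4.13 CPM (2.65 to 5.49). Neighbours among these were in this order in 8 and 9 of 15 libraries. miR-20a-3p had 0.540 CPM on average, from 4 to 14 counts per library, and did not pass the filter on low counts, which left 9 of the 10 members among 562 tested miRNAs. Its mean was 0.432 CPM in hypoxic control, 0.470 in HIF1α-KO, 0.557 in HIF2α-KO, 0.719 in HIF1α/HIF2α-KO and 0.523 CPM in normoxic control cells, and the groups overlapped in all 7 comparisons. All strands have nearly the same length, so no length scaling was needed, but ligation in small RNA libraries depends on sequence, and levels of different miRNAs are relative.

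**Figure D1:**
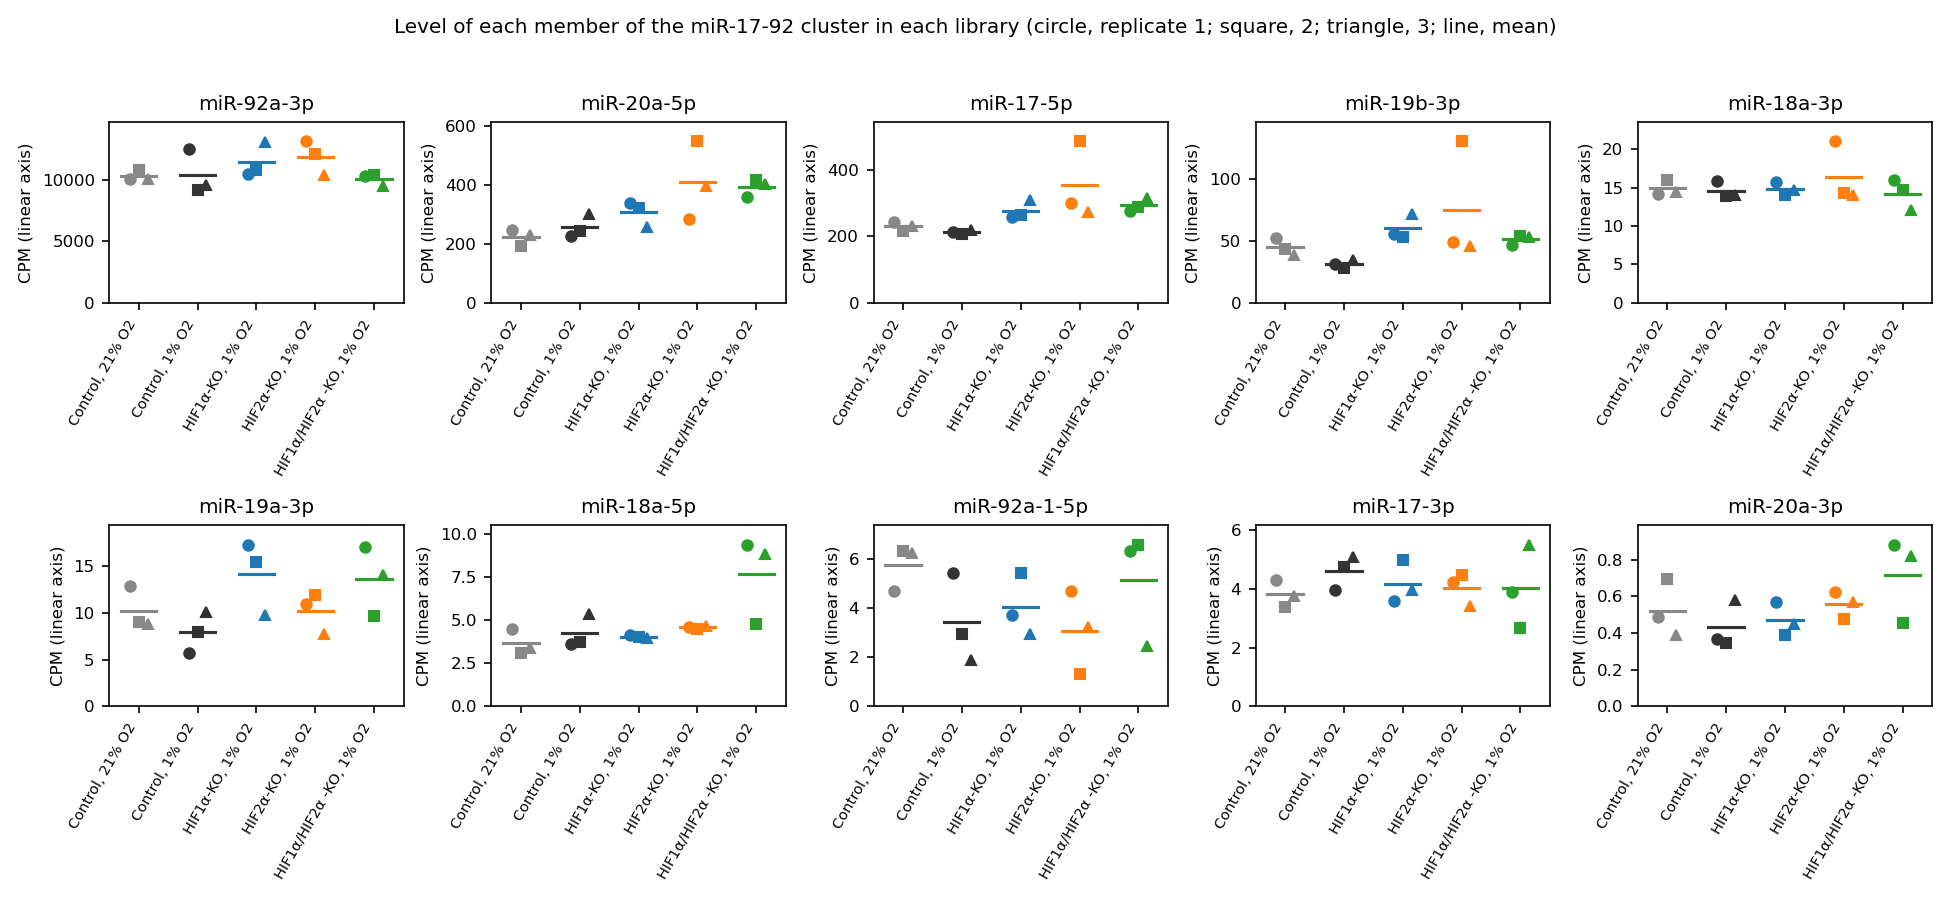
CPM of each of the 10 members in each of the 15 libraries (vertical axes linear and starting at 0, scaled separately for each member; points, libraries; lines, group means), ordered by mean level. miR-92a-3p lies between 9178 and 13118 CPM in all groups, whereas miR-17-5p, miR-20a-5p and miR-19b-3p each have their highest point in replicate 2 of HIF2α-KO cells (486, 549 and 131 CPM).

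The counts of miR-18a-5p could not be told apart from those of miR-18b-5p, its paralog on chromosome X. The strands differ by A20U alone. Their counts differed by 0 to 4 in every library, at 39 to 149 counts of miR-18a-5p and 38 to 146 of miR-18b-5p, and had a Pearson r of 0.998 over 15 libraries that share their depth. All values of miR-18a-5p below are therefore uncertain as to their locus. Other near-identical pairs did not show this. miR-17-5p and miR-106a-5p also differ by 1 base (C1A), but miR-17-5p had 75.5 to 138 times the counts. miR-20a-5p differs from miR-20b-5p by U1C and U10C and had 107 to 223 times the counts. The ratio of miR-19a-3p to miR-19b-3p varied from 0.0910 to 0.361.

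**Figure D2:**
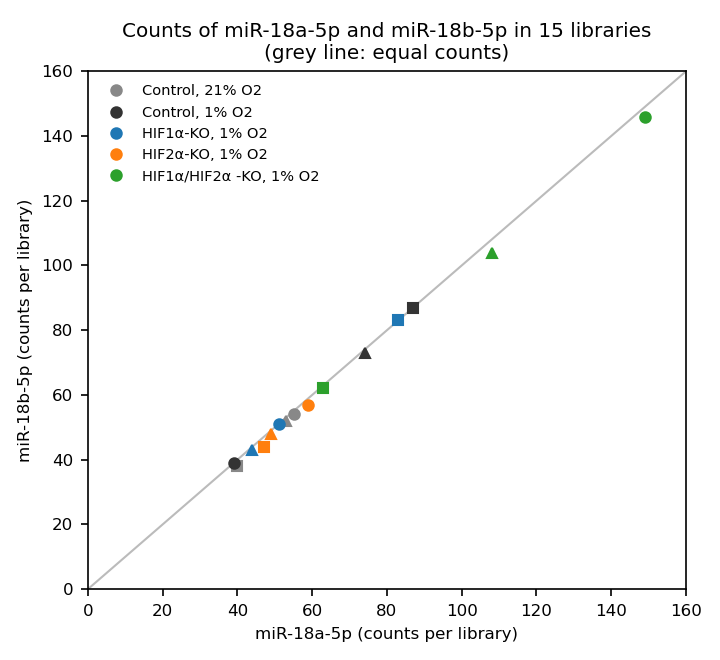
Raw counts of miR-18a-5p (horizontal) against miR-18b-5p (vertical) in each library, with a grey line at equal counts (circle, replicate 1; square, replicate 2; triangle, replicate 3; colours, groups). All 15 points lie within 4 counts of the line, from 39 to 149 counts of miR-18a-5p, and the highest is replicate 1 of HIF1α/HIF2α-KO cells.

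Whether the cluster changed with each genotype was tested for all 562 miRNAs in one edgeR quasi-likelihood fit of all 15 libraries, with Benjamini-Hochberg adjustment. No member passed an adjusted p under 0.05 in any of the 7 comparisons or in the interaction. The single and double knockouts were each compared with the same 3 hypoxic control libraries, so their results are not independent of one another, and the members are not replicates.

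In HIF1α-KO cells the strands of the 19 family had the largest differences from hypoxic control cells. miR-19b-3p had 31.1, 28.2 and 34.7 CPM in control replicates 1 to 3 and 55.8, 53.3 and 72.2 CPM in HIF1α-KO replicates 1 to 3. All 3 knockout libraries were above all 3 control libraries, and the log2 fold change was 0.95 (SE 0.32, unadjusted p = 0.0105, adjusted p = 0.203, edgeR). miR-19a-3p had 5.71, 7.91 and 10.1 CPM in control and 17.3, 15.4 and 9.80 CPM in HIF1α-KO cells. Here the groups overlapped, since HIF1α-KO replicate 3 was below control replicate 3, and the log2 fold change was 0.84 (SE 0.29, adjusted p = 0.240, edgeR). miR-17-5p had 212, 206 and 218 CPM in control cells and 260, 264 and 309 CPM in HIF1α-KO cells, without overlap, with a log2 fold change of 0.39 (SE 0.18, adjusted p = 0.408, edgeR). Its seed partner miR-20a-5p had 226, 245 and 301 CPM in control cells and 340, 324 and 259 CPM in HIF1α-KO cells, which overlapped (log2 fold change 0.26, SE 0.21, adjusted p = 0.695, edgeR). The log2 fold change was 0.14 for miR-92a-3p (SE 0.13) and -0.07 for miR-18a-5p (SE 0.25). The opposite strands had 0.02 (miR-18a-3p, SE 0.19), -0.14 (miR-17-3p, SE 0.25) and 0.27 (miR-92a-1-5p, SE 0.47), and their groups overlapped. An adjusted p under 0.05 was reached by 0 of 9 members and by 1.25% of all tested miRNAs. At an unadjusted p under 0.05, 3 members were higher and 0 lower, where 5.69% of all tested miRNAs were higher. The groups did not overlap, with the knockout higher, for 2 of 9 members and for 10.1% of all tested miRNAs. The median log2 fold change of the members was 0.26, against -0.05 over all tested miRNAs.

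In HIF2α-KO cells the 17/20a family and miR-19b-3p had the larger values, and 1 library set their size. miR-17-5p had 302, 486 and 273 CPM in replicates 1 to 3, all above the 206 to 218 CPM of control cells, with a log2 fold change of 0.74 (SE 0.18, unadjusted p = 0.00108, adjusted p = 0.124, edgeR). miR-20a-5p had 283, 549 and 398 CPM, of which replicate 1 was below control replicate 3 (log2 fold change 0.67, SE 0.21, adjusted p = 0.172, edgeR). miR-19b-3p had 49.3, 131 and 45.8 CPM, all above the control libraries, with a log2 fold change of 1.27 (SE 0.32, unadjusted p = 0.00157, adjusted p = 0.124, edgeR). Replicate 2 was the highest of all 15 libraries for each of these strands. Without it the log2 fold changes were 0.41, 0.38 and 0.58 in the same order, while without replicate 1 miR-20a-5p (0.87, adjusted p = 0.0404) and miR-19b-3p (1.49, adjusted p = 0.0423) passed in edgeR. With each replicate left out in turn, the adjusted p of the 3 strands reached 0.445, 0.519 and 0.445 in edgeR, and 0 to 10 of all tested miRNAs passed. Replicate 2 was not extreme for miR-92a-3p, which had 13118, 12113 and 10356 CPM in HIF2α-KO cells and 12527, 9178 and 9550 CPM in control cells. The log2 fold change of miR-92a-3p was 0.19 (SE 0.13, adjusted p = 0.580, edgeR). It was 0.37 for miR-19a-3p (SE 0.30), which lay between 0.19 without control replicate 1 and 0.60 without control replicate 3, and 0.11 for miR-18a-5p (SE 0.26). The opposite strands had 0.18 (miR-18a-3p, SE 0.19), -0.19 (miR-17-3p, SE 0.25) and -0.12 (miR-92a-1-5p, SE 0.48). No miRNA at all passed here (0% of 562), and 86 had an unadjusted p under 0.05. The study, by contrast, lists miR-17-5p, miR-19b-3p and miR-20a-5p as up in HIF2α-KO cells. Among the members 3 were higher at an unadjusted p under 0.05 and 0 lower, where 8.54% of all tested miRNAs were higher. The groups did not overlap, with the knockout higher, for 2 of 9 members and 9.07% of all tested miRNAs. With total counts in place of TMM factors the median of all miRNAs in this comparison moved by -0.14, and the log2 fold changes were 0.60 for miR-17-5p, 0.53 for miR-20a-5p and 1.13 for miR-19b-3p. Within the higher miR-126 set, HIF2α-KO replicates 1 and 3 against 1 control library gave 0.49 for miR-17-5p, 0.65 for miR-20a-5p and 0.67 for miR-19b-3p, and no miRNA passed (0%). Within the lower set, replicate 2 alone against 2 control libraries gave 1.18, 0.996 and 2.05, and these strands passed with miR-92a-3p (0.36), where 23.5% of all tested miRNAs did. A group with 1 library is assumed in these fits to vary like the other groups.

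In HIF1α/HIF2α-KO cells the strands of the 17/20a, 18a and 19 families were above hypoxic control cells on average, and miR-92a-3p was not. miR-20a-5p had 362, 418 and 404 CPM, all above the 226 to 301 CPM of control cells, with a log2 fold change of 0.62 (SE 0.21, unadjusted p = 0.00988, adjusted p = 0.0742, edgeR). miR-17-5p had 278, 288 and 315 CPM, also without overlap (log2 fold change 0.47, SE 0.18, adjusted p = 0.112, edgeR). miR-19b-3p had 47.1, 54.3 and 53.2 CPM, again above every control library (log2 fold change 0.72, SE 0.32, adjusted p = 0.181, edgeR). Its seed partner miR-19a-3p had 17.004, 9.70 and 14.1 CPM, and replicate 2 was below the highest control library (log2 fold change 0.78, SE 0.29, adjusted p = 0.111, edgeR). miR-18a-5p had 9.38, 4.77 and 8.85 CPM in HIF1α/HIF2α-KO cells, from 149, 63 and 108 counts, and 3.59, 3.76 and 5.39 CPM in control cells. Replicate 2 lay within the control range, and the log2 fold change was 0.85 (SE 0.25, unadjusted p = 0.00449, adjusted p = 0.0534, edgeR), the smallest adjusted p of a member in this comparison. It passed under some other settings and not under others. Without control replicate 3 it had an adjusted p of 0.0391, and without HIF1α/HIF2α-KO replicate 2, its lowest knockout library, of 0.0155. With each replicate of the 2 groups left out in turn, its adjusted p reached 0.183 in edgeR, and 15 to 32 of all tested miRNAs passed. miR-92a-3p had 10321, 10425 and 9485 CPM, within the control range (log2 fold change -0.05, SE 0.13, adjusted p = 0.868, edgeR). The opposite strands had -0.20 (miR-17-3p, SE 0.25), -0.03 (miR-18a-3p, SE 0.19) and 0.61 (miR-92a-1-5p, SE 0.47). The last of these was 0.35 without control replicate 3, 1.10 without control replicate 1 and 0.96 without HIF1α/HIF2α-KO replicate 3.

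An adjusted p under 0.05 was reached by 0 of 9 members and by 5.87% of all tested miRNAs in this comparison. At an unadjusted p under 0.05, 5 members were higher and 0 lower, namely all strands that carry a family seed except miR-92a-3p, where 11% of all tested miRNAs were higher. The groups did not overlap, with the knockout higher, for 3 of 9 members and 13.7% of all tested miRNAs. The median log2 fold change was 0.61 over the 9 members and -0.02 over all tested miRNAs. Within the sets defined by miR-126 the libraries were few. In the lower set, miR-17-5p had 206 and 218 CPM in control libraries and 315 CPM in the single HIF1α/HIF2α-KO library, and in the higher set 212 CPM in the single control library and 278 and 288 CPM in HIF1α/HIF2α-KO libraries. miR-20a-5p had 245 and 301 against 404 CPM in the lower set and 226 against 362 and 418 CPM in the higher set. With these sets as a covariate, miR-20a-5p (0.74, adjusted p = 0.0175), miR-18a-5p (0.92, adjusted p = 0.0401) and miR-19a-3p (0.97, adjusted p = 0.0379) passed in edgeR. In that fit 61 of the 562 tested miRNAs passed, against 33 without the covariate. Fitted within the lower set alone, miR-17-5p (0.56, adjusted p = 0.0227), miR-20a-5p (0.56, adjusted p = 0.0383), miR-19b-3p (0.76, adjusted p = 0.0262) and miR-18a-5p (0.97, adjusted p = 0.0414) passed in edgeR, where 14.6% of all tested miRNAs did. Within the higher set their log2 fold changes were 0.47, 0.84, 0.76 and 1.03, and 0 members and 0.356% of all tested miRNAs passed.

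**Figure D3:**
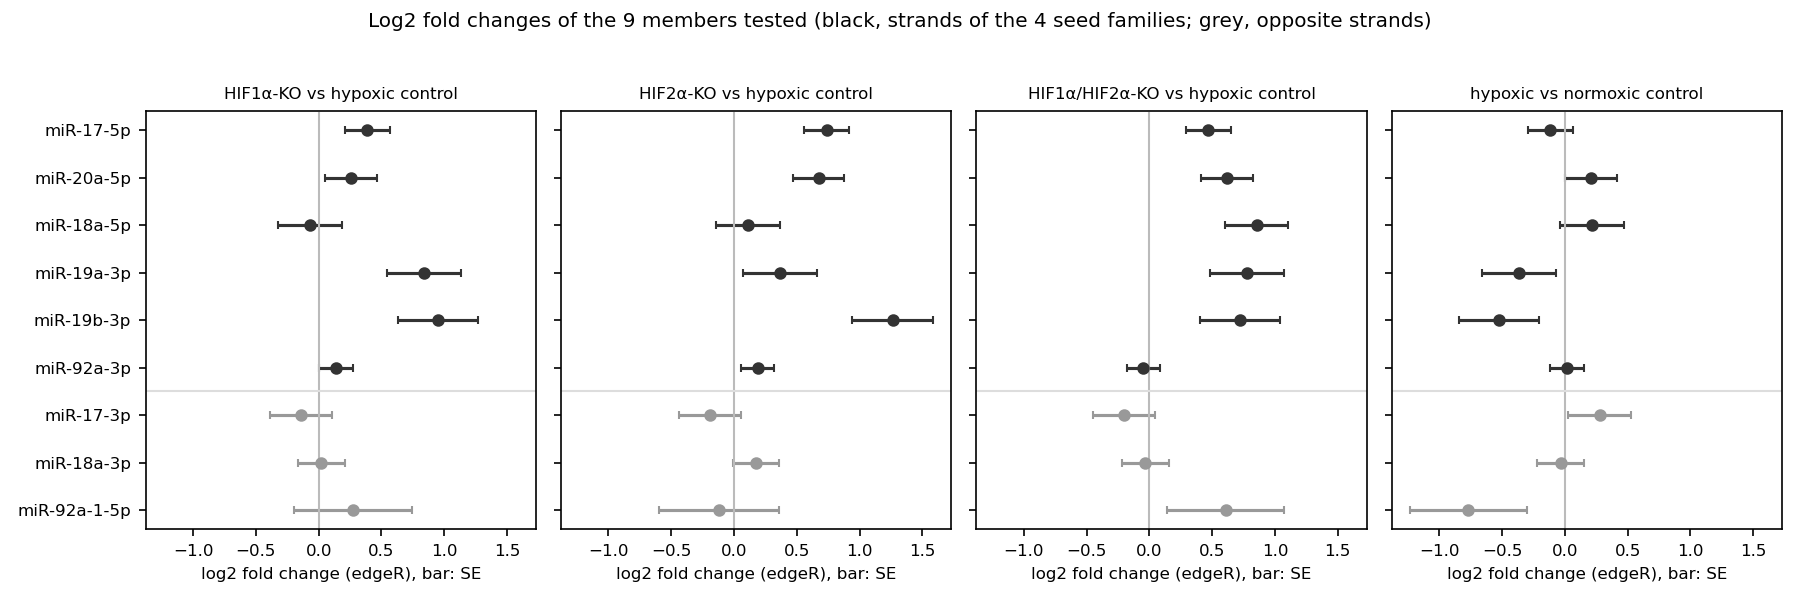
Log2 fold changes from the edgeR fit (points) with their standard errors (bars) for the 9 members tested, in 4 comparisons; black, strands of the seed families; grey, opposite strands; a vertical line marks 0. miR-19b-3p lies at 0.95, 1.27 and 0.72 in the knockouts and at -0.52 between hypoxic and normoxic control cells, while miR-92a-3p stays between -0.05 and 0.19.

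Oxygen alone gave no called miRNA in control cells (0% of 562, with 35 at an unadjusted p under 0.05), and 0 members had an unadjusted p under 0.05. Nor was miR-210-3p, which hypoxia is well known to induce, higher in hypoxia (log2 fold change -0.19, adjusted p = 0.841, edgeR). The comparison thus lacks the rise of a known hypoxia marker. miR-19b-3p had 52.7, 43.6 and 38.5 CPM in normoxia, and its 28.2 to 34.7 CPM in hypoxia were all lower (log2 fold change -0.52, SE 0.32, adjusted p = 0.785, edgeR). This was 1 of 9 members without overlap and lower in hypoxia, where 9.96% of all tested miRNAs were. miR-92a-1-5p had the largest difference in size, -0.77 (SE 0.47, adjusted p = 0.785, edgeR), with 4.71, 6.32 and 6.25 CPM in normoxia and 5.44, 2.94 and 1.89 CPM in hypoxia, which overlapped. It was -0.49 without hypoxic replicate 3 and -1.24 without hypoxic replicate 1. Of the others, miR-19a-3p had -0.37 (-0.16 without normoxic replicate 1, -0.19 without hypoxic replicate 1 and -0.59 without hypoxic replicate 3), miR-17-5p -0.12, miR-18a-3p -0.03, miR-92a-3p 0.02, miR-20a-5p 0.21, miR-18a-5p 0.22 and miR-17-3p 0.28. All 3 normoxic libraries but 1 hypoxic library were in the higher miR-126 set, and the order of these differences depended on it. With the sets as a covariate the log2 fold change was -0.72 for miR-19b-3p, -0.69 for miR-19a-3p, -0.27 for miR-92a-1-5p, -0.03 for miR-20a-5p and 0.03 for miR-17-3p. Within the higher set, against hypoxic replicate 1 alone, miR-19a-3p had -0.87, miR-19b-3p -0.57, miR-92a-1-5p -0.12 and miR-20a-5p -0.01, and no miRNA passed in either fit (0% of 562 in edgeR).

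Between the single knockouts, the log2 fold changes from HIF1α-KO to HIF2α-KO cells ran from -0.47 for miR-19a-3p (SE 0.29) to 0.42 for miR-20a-5p (SE 0.21), and the smallest adjusted p was 0.309 in edgeR. Between these were 0.35 for miR-17-5p, 0.32 for miR-19b-3p, 0.15 for miR-18a-3p, 0.05 for miR-92a-3p, -0.05 for miR-17-3p and -0.39 for miR-92a-1-5p. The upper end rested on HIF2α-KO replicate 2. Without it miR-20a-5p had 0.10, miR-17-5p -0.002, miR-19b-3p -0.40 and miR-92a-1-5p -0.08. Without HIF1α-KO replicate 3 miR-20a-5p had 0.24 and miR-19a-3p -0.74, and with total counts in place of TMM factors miR-20a-5p had 0.23. Of all tested miRNAs 1.07% passed. Within the lower miR-126 set, with that replicate as its HIF2α-KO library, 4 members and 24% of all tested miRNAs passed, and within the higher set 0 members and 0.178%. miR-18a-5p was the 1 member without overlap and higher in HIF2α-KO cells, at 4.62, 4.47 and 4.65 CPM against 4.16, 4.06 and 3.95 CPM (log2 fold change 0.18, SE 0.26), where 11% of all tested miRNAs were. These values rest on 44 to 83 counts per library.

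miR-18a-5p also had the largest difference between the double and each single knockout. Its log2 fold change from HIF1α-KO to HIF1α/HIF2α-KO cells was 0.92 (SE 0.25, unadjusted p = 0.00277, adjusted p = 0.0818, edgeR), and from HIF2α-KO cells 0.74 (SE 0.25, unadjusted p = 0.0110, adjusted p = 0.117, edgeR). All 3 HIF1α/HIF2α-KO libraries were above all 6 single knockout libraries, although replicate 2, at 4.77 CPM, was only just above the highest of them (4.65 CPM). Without that replicate the adjusted p was 0.0203 and 0.0341. With each replicate left out in turn, the adjusted p of miR-18a-5p reached 0.311 and 0.380 in edgeR. In these fits 0 to 14 of all tested miRNAs passed against HIF1α-KO and 2 to 17 against HIF2α-KO cells. Against HIF1α-KO cells, miR-20a-5p was also higher without overlap (0.36, SE 0.21, adjusted p = 0.471, edgeR), and miR-92a-3p lower without overlap (-0.19, SE 0.13, adjusted p = 0.607, edgeR). The value of miR-20a-5p was 0.23 without HIF1α-KO replicate 3. The others had 0.34 (miR-92a-1-5p), 0.08 (miR-17-5p), -0.06 (miR-18a-3p and miR-19a-3p), -0.07 (miR-17-3p) and -0.23 (miR-19b-3p). This made 2 members higher and 1 lower without overlap, where 10.5% and 10.9% of all tested miRNAs were. Against HIF2α-KO cells 1 member was higher without overlap, where 8.72% were. The others there had 0.73 (miR-92a-1-5p), 0.41 (miR-19a-3p), -0.01 (miR-17-3p), -0.06 (miR-20a-5p), -0.21 (miR-18a-3p), -0.24 (miR-92a-3p), -0.27 (miR-17-5p) and -0.55 (miR-19b-3p). Without HIF2α-KO replicate 2 miR-19b-3p had 0.13, miR-17-5p 0.04 and miR-92a-1-5p 0.39. Of all tested miRNAs, 1.42% passed an adjusted p under 0.05 against HIF1α-KO and 1.78% against HIF2α-KO cells, and 0 members did. Within the lower miR-126 set 0 members passed against HIF1α-KO, where 3.91% of all tested miRNAs did, and 3 against HIF2α-KO cells, where 12.6% did. Within the higher set 0 members passed in both, where 0.178% and 0.356% did.

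The interaction asks whether HIF1α knockout has another effect in cells that lack HIF2α than in cells that have it. Its value was -1.49 for miR-19b-3p (SE 0.45, unadjusted p = 0.00524, adjusted p = 0.378, edgeR), -0.65 for miR-17-5p (SE 0.25, adjusted p = 0.439, edgeR) and 0.81 for miR-18a-5p (SE 0.36, adjusted p = 0.439, edgeR). That is, miR-19b-3p was higher in both single knockouts than in control cells, and in the double knockout it had less than the sum of these differences. No miRNA passed (0% of 562, with 59 at an unadjusted p under 0.05), and 3 members had an unadjusted p under 0.05. The others had 0.45 (miR-92a-1-5p), 0.13 (miR-17-3p), -0.23 (miR-18a-3p), -0.31 (miR-20a-5p), -0.37 (miR-92a-3p) and -0.42 (miR-19a-3p). Without HIF2α-KO replicate 2 the value was -0.85 for miR-19b-3p, -0.37 for miR-17-5p, -0.06 for miR-20a-5p and 0.09 for miR-92a-1-5p. Within the lower miR-126 set, to which that replicate belongs, 3 members and 7.83% of all tested miRNAs passed, and within the higher set none (0%).

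The levels of the seed families were then compared with that of miR-92a-3p, with which the chromosome 13 strands share a transcript. The 17/20a family had 470 ± 43.1 CPM in hypoxic control, 585 ± 16.1 in HIF1α-KO, 764 ± 239 in HIF2α-KO, 688 ± 43.0 in HIF1α/HIF2α-KO and 453 ± 41.0 CPM in normoxic control cells (SD, n = 3). The 19 family had 39.2 ± 4.83, 74.6 ± 6.78, 85.5 ± 49.6, 65.1 ± 1.89 and 55.2 ± 9.40 CPM in the same order (SD, n = 3). Relative to miR-92a-3p, the 19 family was higher than in hypoxic control by 0.79 (log2) with HIF1α knocked out (two-sided exact permutation test, p = 0.1), 0.79 with HIF2α knocked out (p = 0.2, exact) and 0.77 with both knocked out (p = 0.1, exact). The difference of hypoxic from normoxic control cells was -0.49 (p = 0.1, exact). The HIF2α-KO value was 0.37 without HIF2α-KO replicate 2, and the oxygen value was -0.31 without hypoxic replicate 1. The summed counts of the 19 family are mostly miR-19b-3p. With the mean of the members' log2 CPM in their place, the HIF2α-KO value was 0.54. The smallest p that 3 libraries against 3 allow is 0.1. The 17/20a family relative to miR-92a-3p was higher by 0.59 in HIF1α/HIF2α-KO cells (p = 0.1, exact), by 0.18 in HIF1α-KO cells (p = 0.5, exact) and by 0.47 in HIF2α-KO cells (p = 0.3, exact). In HIF2α-KO cells it was 0.24 without replicate 2 and 0.71 without replicate 1, and 0.28 without control replicate 1. In HIF1α-KO cells it was -0.01 without control replicate 1 and 0.31 without control replicate 3. The 18a family relative to miR-92a-3p differed from hypoxic control by 0.85 in HIF1α/HIF2α-KO (p = 0.2, exact), -0.19 in HIF1α-KO (p = 0.6, exact) and -0.06 in HIF2α-KO cells (p = 0.9, exact), with overlap in each. The same ratio was higher in HIF1α/HIF2α-KO than in HIF1α-KO cells by 1.04 (p = 0.1, exact) and than in HIF2α-KO cells by 0.91 (p = 0.1, exact).

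Ratios between the other families were compared in the same way. The log2 ratio of the 17/20a to the 19 family differed from hypoxic control by -0.61 in HIF1α-KO cells (p = 0.1, exact permutation test) and by -0.18 in HIF1α/HIF2α-KO cells (p = 0.1, exact), without overlap in both. In HIF2α-KO cells it differed by -0.32 with overlap (p = 0.4, exact), and by -0.12 without replicate 2. With the mean of the members' log2 CPM in place of summed counts, the HIF2α-KO difference was -0.08. Between hypoxic and normoxic control cells this ratio was higher by 0.54 (p = 0.1, exact). Over the 42 tests of 6 family pairs in 7 comparisons, 17 had the smallest possible p, 0.1, and the lowest adjusted p was 0.247. With 3 libraries against 3, none could have passed an adjusted p under 0.05, so this outcome was fixed in advance. The pairs share families and control libraries and are not independent. No share over ratios of other miRNAs was computed. The families held 3.37% to 7.79% (17/20a), 0.0274% to 0.0861% (18a), 0.283% to 1.07% (19) and 91.1% to 96.3% (92a) of the counts of the family strands in a library.

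**Figure D4:**
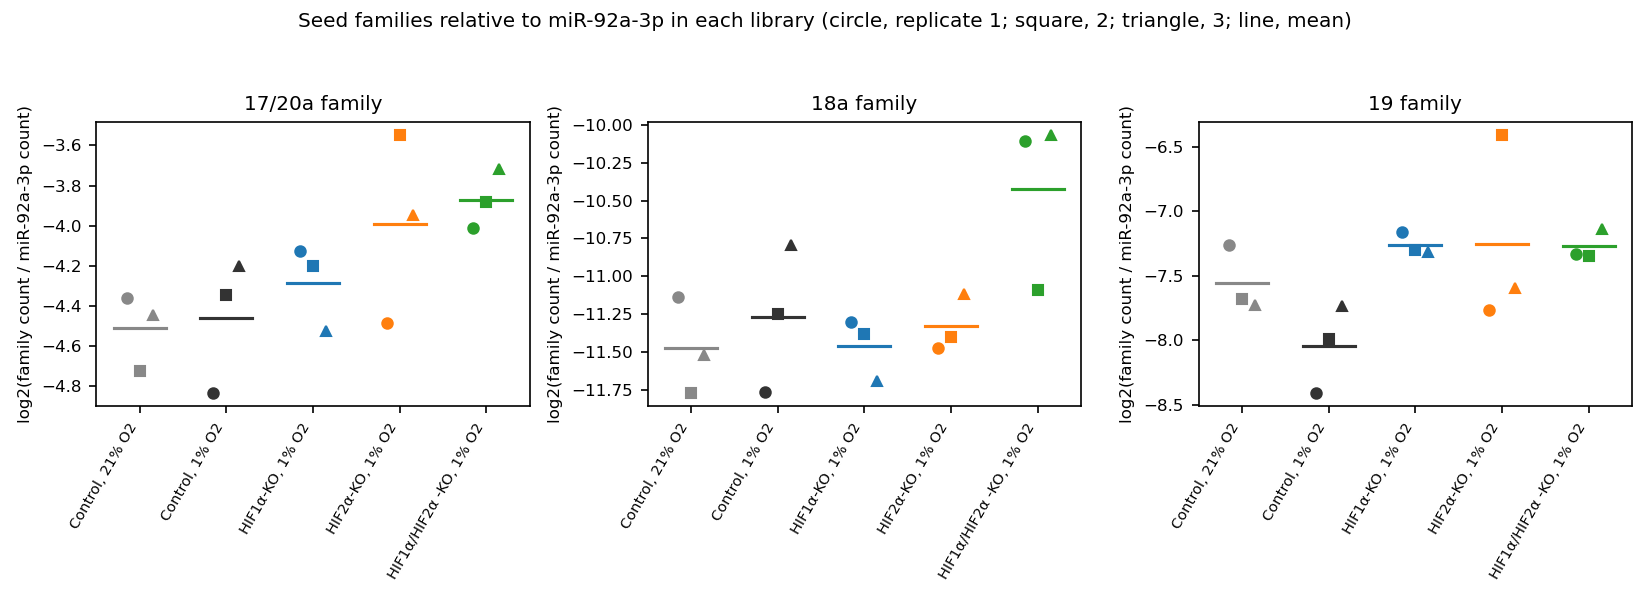
Log2 ratio of the summed counts of the 17/20a family, the 18a family and the 19 family to the count of miR-92a-3p in each library (vertical axes scaled separately; points, libraries; lines, group means). The HIF1α-KO and HIF1α/HIF2α-KO points of the 19 family lie above all hypoxic control points, with mean differences of 0.79 and 0.77, and HIF2α-KO replicate 2 is the highest point of the 17/20a and 19 families.

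The 2 arms of a hairpin were compared as the log2 ratio of 5p to 3p counts, each with 0.5 added, in limma over the 143 hairpins with both arms tested. The 5p strand made up 97.7% to 99.1% of the counts of the miR-17 hairpin and 99.6% to 99.9% of those of miR-20a. It made up 0.0110% to 0.0632% at miR-92a-1, where the 3p counts may also come from chromosome X. In the miR-18a hairpin the 3p strand was the more abundant in all 15 libraries. The 5p share there was 37.0% (95% Wilson interval 32.4 to 41.8), 24.5% (19.7 to 30.1) and 42.4% (36.4 to 48.5) in HIF1α/HIF2α-KO replicates 1 to 3, and 16.1% to 27.7% in the other 12 libraries. Its 5p counts cannot be separated from those of miR-18b-5p.

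The change of the miR-18a arm ratio in HIF1α/HIF2α-KO cells was 0.85 (SE 0.30, adjusted p = 0.237, limma) against hypoxic control, 0.92 (adjusted p = 0.185, limma) against HIF1α-KO and 0.87 (adjusted p = 0.218, limma) against HIF2α-KO cells. The 3p strand itself, miR-18a-3p, had 16.0, 14.7 and 12.1 CPM in HIF1α/HIF2α-KO cells and 15.9, 13.9 and 14.1 CPM in control cells, a log2 fold change of -0.03 (SE 0.19). The miR-17 ratio was higher than in hypoxic control by 0.53 in HIF1α-KO cells (SE 0.24, adjusted p = 0.687, limma), 0.87 in HIF2α-KO cells (unadjusted p = 0.00335, adjusted p = 0.158, limma) and 0.72 in the double knockout (adjusted p = 0.194, limma). The log2 fold changes of miR-17-3p were -0.14, -0.19 and -0.20 in these knockouts, from 35 to 110 counts per library. Of the 143 hairpins, 0 (0%) passed in each of these comparisons. With the miR-126 sets as a covariate 5 hairpins passed in the double knockout against hypoxic control and 1 against HIF1α-KO cells, and with at least 10 counts of both arms 1 of 97 passed in the former, none of them of the cluster (miR-18a 0.98, adjusted p = 0.112, with the covariate, limma).

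**Figure D5:**
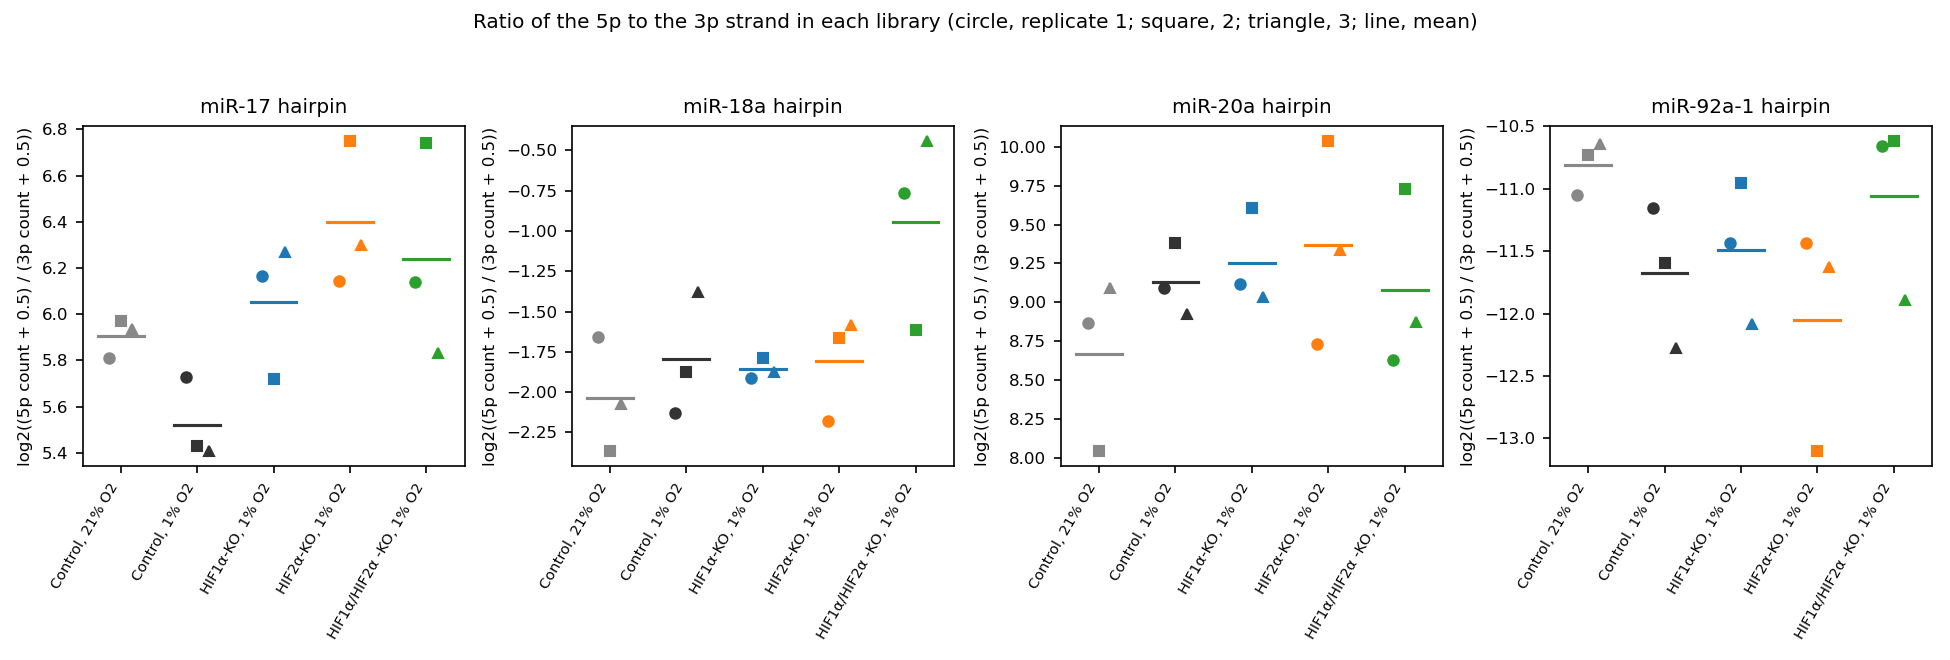
Log2 ratio of 5p to 3p counts, each with 0.5 added, for 4 hairpins of the cluster in each library (vertical axes scaled separately; points, libraries; lines, group means). Values above 0 mean more 5p than 3p counts; the miR-18a hairpin lies below 0 in all 15 libraries, and its 2 highest points are HIF1α/HIF2α-KO replicates 1 and 3.

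Levels of single miRNAs, as log2(CPM + 0.5), were correlated across the 15 libraries, which share scaling and cover 5 conditions. miR-17-5p and miR-19b-3p had a Pearson r of 0.92, miR-17-5p and miR-20a-5p 0.79 and miR-20a-5p and miR-19b-3p 0.64. The miR-19 seed partners had 0.45, and miR-20a-5p and miR-92a-3p -0.04. The arms paired by hairpin name had 0.06 for miR-17, -0.21 for miR-18a and 0.04 for miR-92a-1. The counts of miR-18a-5p and miR-92a-3p in the last pairs may include strands from chromosome X. These values are a description, and HIF2α-KO replicate 2 is the highest point of miR-17-5p, miR-20a-5p and miR-19b-3p. A search for like levels left out the members, their paralogs and the other miRNAs with a family seed, listed below. Among the remaining tested miRNAs, the level most like the summed strands of the seed families was that of miR-1291 (r = 0.82). That sum is mostly miR-92a-3p. Next were miR-501-3p (0.75), miR-107 (0.72), miR-10395-5p (0.68) and miR-3934-5p (0.64).

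The paralogous clusters miR-106a-363 and miR-106b-25, the opposite arms of the 19 hairpins and the other miRNAs with a family seed made a list of 22, of which 17 were in the files and 11 were tested. The number that passed an adjusted p under 0.05 in edgeR was 0 in every comparison and in the interaction. The study names miR-20b-5p and miR-93-5p of these as up in HIF2α-KO cells. At an unadjusted p under 0.05, 1 was higher in HIF1α-KO, 3 in HIF2α-KO and 2 in double knockout cells than in hypoxic control, and 0, 0 and 2 were lower. Of all tested miRNAs, 5.69%, 8.54% and 11% were higher and 6.23%, 6.76% and 13.3% lower in the same order. Their median log2 fold changes were -0.04, 0.06 and -0.07. In HIF1α/HIF2α-KO cells, described because most members had an unadjusted p under 0.05 there, the highest were miR-18b-5p (0.82, adjusted p = 0.0595, edgeR), whose counts are those of miR-18a-5p, and miR-20b-5p (0.72, adjusted p = 0.0826, edgeR). The lowest were miR-106b-3p (-0.46, adjusted p = 0.0672, edgeR) and miR-25-3p (-0.35, adjusted p = 0.0742, edgeR), which has the seed of miR-92a-3p. The seed partners miR-93-5p, miR-106b-5p and miR-25-3p averaged 862, 104 and 3495 CPM. The opposite arms had 0 to 1 counts (miR-19a-5p) and 0 to 11 counts (miR-19b-1-5p) per library.

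For scale, miR-210-3p, a well-known hypoxia-induced miRNA, had a log2 fold change against hypoxic control of -1.76 in HIF1α-KO (adjusted p = 0.0126, edgeR), 0.57 in HIF2α-KO (adjusted p = 0.400, edgeR) and -2.21 in the double knockout (adjusted p = 0.00402, edgeR). It was 2.33 from HIF1α-KO to HIF2α-KO cells (adjusted p = 0.00240, edgeR), -0.19 from normoxia to hypoxia (adjusted p = 0.841, edgeR), -0.46 and -2.79 from HIF1α-KO and HIF2α-KO to HIF1α/HIF2α-KO cells (adjusted p = 0.546 and 0.000381, edgeR) and -1.03 in the interaction (adjusted p = 0.439, edgeR). The difference passed in 4 of the 7 comparisons, in which no member of the cluster did.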

How the data were processed

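Raw counts per mature miRNA, deposited by the authors as whole numbers without normalization, were used for 15 libraries of U87-MG cells, with groups and replicate numbers from the labels. The submitters' processing notes name HISAT2, StringTie and DESeq2 without roles or versions. The build, annotation and counting rules are not given in the sources used here. The supplementary methods name quantile normalization in limma, which these counts do not include.

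Counts were fitted with edgeR 4.0.16 in R 4.3.3 (TMM, filterByExpr, quasi-likelihood test, 1 mean per group, Benjamini-Hochberg adjustment over 562 miRNAs, threshold 0.05). This test gives no standard error. The SE of an edgeR log2 fold change is its absolute value divided by the square root of the F statistic, and is approximate. Arm ratios (pseudocount 0.5) were tested with limma 3.58.1 over 143 hairpins, and seed family ratios with two-sided exact permutation tests. The scripts were tested on simulated data. No replicates were copies of one another (smallest chi-square per degree of freedom 49.3). Alternatives included DESeq2 1.42.0, limma, other scalings, no filter, the replicate number as a block and each replicate left out. Merging miR-18a-5p with miR-18b-5p, other scalings of the CPM, leaving out hairpins with equal arms and fits within each miR-126 set were added after seeing the data.

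The text names the 9 tested members in every comparison, miR-20a-3p by its levels and miR-210-3p. It also names the 5 miRNAs, outside the cluster and the list, most correlated with the summed strands of the seed families. Of the list, it names the 2 highest and 2 lowest in the comparison with most called members. With 0 called anywhere, that with most at an unadjusted p under 0.05 was taken, chosen after the values were seen. Members and lists were chosen with earlier results of these data known. Same-numbered libraries deviated from their group means with correlations from -0.640 to 0.613 across miRNAs, so the numbers were not taken as pairs.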

Additional observations from a re-analysis of the deposited data

How the results depend on the processing

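Depth limits the low strands: miR-18a-5p, miR-17-3p and miR-92a-1-5p rest on 14 to 149 counts per library. Of 1341 refitted log2 fold changes of members, 103 changed sign, 13 of them among the 669 with a size of at least 0.3, and 35 passed. As reported no member was called, so no call could reverse. The causes below were not tested. Members that passed, 0 in each comparison as reported: without the filter 1 (miR-19b-3p) in HIF1α-KO (adjusted p = 0.0246) and in HIF2α-KO against control (0.00115) and 1 in the interaction (0.0309). In HIF1α/HIF2α-KO against control, 2 with total counts (miR-18a-5p and miR-20a-5p), 1 with limma (miR-20a-5p), 1 with DESeq2 (miR-18a-5p) and 3 with the miR-126 sets as a covariate; against HIF1α-KO, 1 with DESeq2 (miR-18a-5p). Leaving out each replicate gave 0 to 1 in each HIF1α/HIF2α-KO comparison (miR-18a-5p) and 0 to 2 in HIF2α-KO against control, and 0 to 0 elsewhere; for arm ratios 0 to 1 (miR-17, HIF2α-KO against control, without HIF2α-KO replicate 1, adjusted p = 0.0450, limma).

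Over all miRNAs, HIF1α-KO against control (7) gave 12 with DESeq2, 0 with only the groups compared and 2 to 6 without a replicate. HIF2α-KO against control (0) gave 11 without the filter and 0 to 10 without a replicate. HIF1α/HIF2α-KO against control (33) gave 50 with total counts, 60 with DESeq2, 61 with the miR-126 sets and 15 to 32 without a replicate. HIF2α-KO against HIF1α-KO (6) gave 12, 20, 14 and 0 with total counts, DESeq2, no filter and only the groups compared, and 2 to 18 without a replicate. HIF1α/HIF2α-KO against HIF1α-KO (8) gave 16 with limma, 25 with DESeq2, 26 without the filter, 0 with only the groups compared, 5 with the miR-126 sets and 0 to 14 without a replicate; against HIF2α-KO (10) it gave 19, 21 and 2 with DESeq2, no filter and only the groups compared and 2 to 17 without a replicate. Without the filter, hypoxic against normoxic control gave 15 and the interaction 5. The ratios of seed families without overlap (17) were 16 with mean log2 CPM and 17 to 23 without a replicate.

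Within the lower miR-126 set (6 libraries, 1 of each knockout with HIF2α lost, no normoxic library, 2 residual degrees of freedom), the members that passed were 4 in HIF2α-KO and 4 in HIF1α/HIF2α-KO against control, 4 in HIF2α-KO against HIF1α-KO, 3 in HIF1α/HIF2α-KO against HIF2α-KO and 3 in the interaction. Over all miRNAs it gave 132, 82, 135, 71 and 44 in the same order, 4 in HIF1α-KO against control and 22 in HIF1α/HIF2α-KO against HIF1α-KO. Within the higher set (9 libraries, 4 residual degrees of freedom) 0 members passed, and over all miRNAs 0 in HIF1α-KO and 2 in HIF1α/HIF2α-KO against control, 1 in HIF2α-KO and 1 in HIF1α/HIF2α-KO against HIF1α-KO and 2 in HIF1α/HIF2α-KO against HIF2α-KO.

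With the replicate number as a block, 0 members passed in any comparison (miR-18a-5p 0.82, adjusted p = 0.0691, and miR-20a-5p 0.62, adjusted p = 0.107, in HIF1α/HIF2α-KO against control, edgeR), and 3 miRNAs passed between HIF2α-KO and HIF1α-KO; the numbers do not pair the libraries. Total counts moved the median of all miRNAs by -0.18 between HIF2α-KO and HIF1α-KO, by 0.20 between HIF1α/HIF2α-KO and HIF2α-KO and by 0.16 in the interaction.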

Other observations

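A search for miRNAs with levels like the 17/20a family over the 15 libraries was added after seeing the data. It too left out the members, their paralogs and the other miRNAs with a family seed. The 5 whose log2(CPM + 0.5) was most alike were miR-652-5p (Pearson r = 0.88), miR-548k (0.86), miR-660-5p (0.85), miR-148b-3p (0.83) and miR-362-3p (0.82). They differ from the miRNAs most like the whole cluster, whose sum is mostly miR-92a-3p. In the hairpins of miR-625 and miR-4755, 2 of 143, the 5p and 3p strands held counts within 1% of each other in every library.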
